A study of Pyronema omphalodes CBS 100304 with 9 samples.

Results

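Surface mycelium of Pyronema omphalodes (also called Pyronema confluens) that had grown in constant darkness was compared with a pool of RNA from other vegetative cultures of the same fungus. The comparison covered the genes with at least 10 counts in at least 2 of the 4 libraries concerned, which were 9801 of the 13369 genes in the table. Both groups came from strain CBS 100304, and both were mycelium whose total RNA was extracted in bulk with the RNeasy lipid tissue mini kit (Qiagen), per the labels. The dark surface mycelium (libraries 1 and 2) grew as a surface culture in WPC medium without light, and its RNA was pooled from cultures of 3, 4 and 5 d. The vegetative pool (libraries 1 and 2) mixed RNA from 3 cultures, all of 3 d: a submerged WPC culture in light, a submerged WPC culture in darkness, and a surface culture in BMM medium in darkness. The series also held 2 libraries of surface mycelium grown in light in WPC medium for the same days as the dark surface mycelium (sexual mycelium) and 3 libraries of laser-dissected young fruiting bodies. These 5 libraries entered the fit to share its estimate of spread. Light, submersion, medium and age all differ between the dark surface mycelium and the pool and cannot be told apart, nor can the share that each culture gave to the pool.

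Pyronema is a soil ascomycete found on burned ground, and it makes its orange, carotenoid-rich fruiting bodies in the light, whereas cultures kept in darkness stay vegetative. Filamentous fungi feed by secreting enzymes that cut plant polymers and proteins, and they take up the products through membrane transporters. Many of these enzymes and transporters are made only under particular carbon or nitrogen supplies, and transporters for scarce ammonium, urea, purines, metals or phosphate are known to be controlled by the nutrient they carry. Gene names below are the product descriptions in the deposited table, which were given by likeness to proteins of other species.

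Levels are given as CPM, the counts of a gene scaled to a common library total with TMM factors, changes are log2 of dark surface mycelium over the pool with a standard error (SE), and n was 2 libraries a group throughout. A gene was called higher or lower in the dark surface mycelium at an edgeR adjusted p below 0.05. Counts summed to 14265890 and 14835205 in dark surface libraries 1 and 2, and to 19887119 and 14473365 in pool libraries 1 and 2. A level of 3 counts was worth 0.137 to 0.195 CPM. Across genes, which do not count as independent replicates, log2 CPM correlated with a Pearson's r of 0.9829 within the dark surface pair, 0.9738 within the pool pair and 0.9013 to 0.9252 between the groups. The pool libraries differed more from each other: 542 genes (5.53%) were over 2-fold higher in pool library 1 and 244 (2.49%) in pool library 2, against 227 (2.32%) and 393 (4.01%) in dark surface libraries 1 and 2. Each library is labelled as a technical replicate of its own numbered sample, and nothing says that samples 1 and 2 came from separate cultures. The p-values therefore set the difference between these libraries only against the spread within the 4 groups of all 9 libraries. That spread may be technical. Each call was made again with each of the 4 libraries left out in turn, the lone library of a group then being assumed to vary like the other groups. Genes named outside the fixed rule, which are listed with the processing, were chosen after their values were seen.

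The dark surface mycelium differed from the pool in 750 of 9801 genes (7.65%). Of these, 281 genes (2.87%) were higher in the dark surface mycelium and 469 (4.79%) were lower. At a stricter test for a change past 2-fold, 63 genes (0.643%) were higher and 178 (1.82%) were lower. The median size of the log2 change was 2.04 among the higher genes and 2.80 among the lower ones, against 0.36 over all genes tested. Levels of the libraries did not overlap between the groups in 6340 genes (64.7%), among them all 750 called genes. The lack of overlap in called genes below is therefore no support beyond their calls. Between 35 and 112 genes were still higher and between 70 and 392 still lower when 1 library was left out, the fewest being higher without pool library 1 and lower without dark surface library 1. Among the lower genes, 97 (20.7%) were over 2-fold higher in pool library 1 than in pool library 2, and 53 (11.3%) the reverse. RNA was taken in bulk, so fewer cells of a type and less RNA per cell cannot be told apart.

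**Figure D1:**
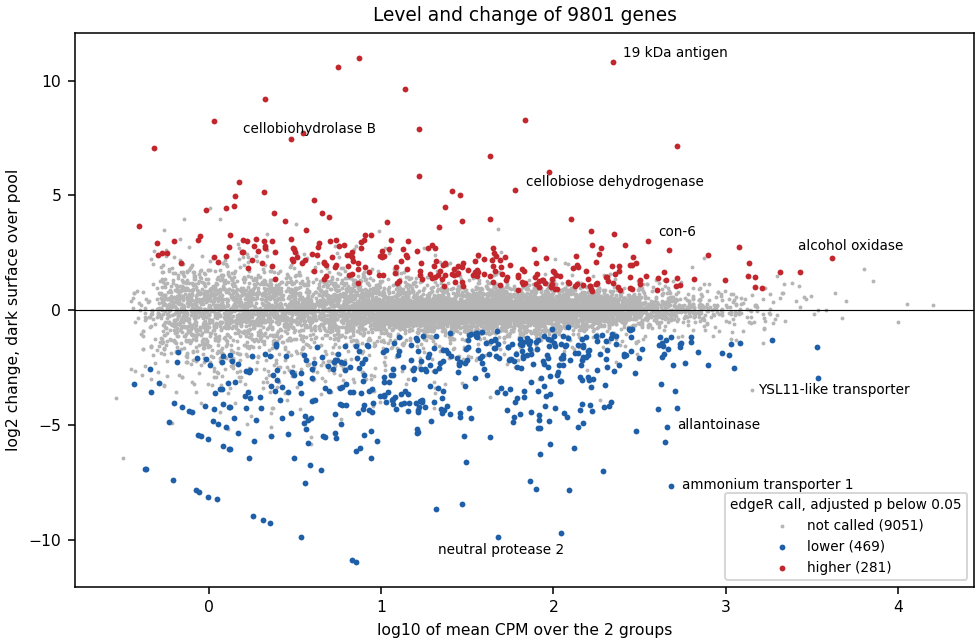
Each point is 1 of 9801 genes, with the log10 of its mean CPM over the 2 groups on the x axis and the log2 change of dark surface mycelium over the vegetative pool on the y axis. Red points are the 281 genes called higher and blue points the 469 called lower, and both lie over the whole range of levels. For genes with few or no counts in the lower group, found among the points furthest from 0, the fitted change is not a measured size.

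The called genes were spread unevenly over 36 lists of genes drawn up from the product descriptions. Nitrogen assimilation had 13 lower and 2 higher genes of 31 tested, with a median log2 change of -1.27, against -0.02 over all genes. Plant cell wall degradation ran the other way, with 11 higher and 1 lower gene of 50 and a median of 0.56. All 3 carotenoid genes were lower (median -4.06). Sterol and lipid synthesis had 11 lower and 0 higher genes of 45 (median -0.20), proteases 11 lower and 2 higher of 69 (median -0.10), and amino acid and peptide transporters 6 lower and 2 higher of 16 (median -0.20). Metal and siderophore uptake had 4 lower and 0 higher of 20 (median -0.49), and phosphate and sulfur 3 lower and 0 higher of 20 (median -0.13). No gene was called among 82 cytosolic ribosomal proteins (median 0.08), 60 ribosome biogenesis genes (median 0.09), 119 DNA replication and cell cycle genes (median 0.09), 18 citrate and glyoxylate cycle genes (median -0.25), 9 histones, 6 transposon-like genes, 5 light sensing genes and 4 genes of the NADPH oxidase and STRIPAK list. Of all genes tested 7.65% were called, 2.87% higher and 4.79% lower. With that share, 0 calls in lists of 9 genes or fewer says little about those genes. The lists and their counts describe these libraries, and no list was tested as a whole.

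**Figure D2:**
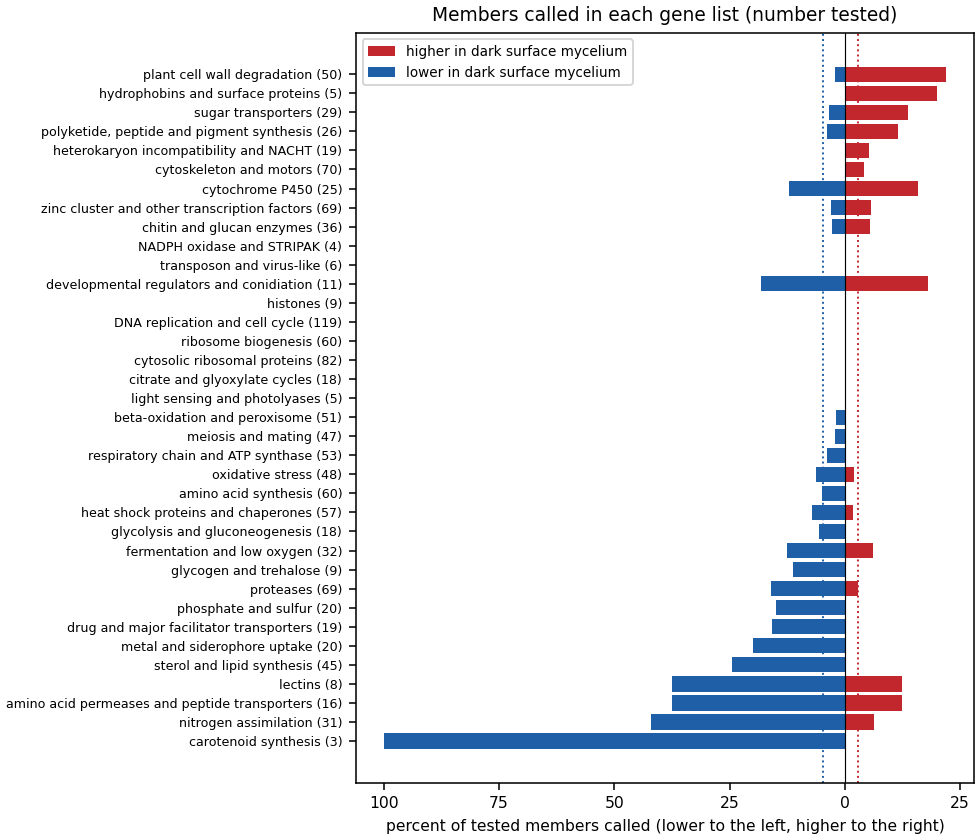
Bars give, for each of the 36 lists, the percentage of its tested genes called higher (red, to the right) or lower (blue, to the left) in dark surface mycelium, with the number tested in brackets and dotted lines at the shares of all genes tested, 2.87% and 4.79%. The carotenoid list has 3 of 3 genes lower and the nitrogen list 13 of 31, while the plant cell wall list has 11 of 50 higher.

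Of 50 genes for plant cell wall degradation, 11 were higher in the dark surface mycelium and 1 was lower, and some of the higher ones were near 0 in the pool. Cellobiohydrolases cut cellobiose from the ends of cellulose chains. PCON_01661, described as cellobiohydrolase B, had 15.8 and 49.9 CPM in dark surface libraries 1 and 2 and 0.137 and 0.126 CPM in pool libraries 1 and 2, a log2 change of 7.88 ± 1.08 (adjusted p = 0.00414). PCON_12040, cellobiohydrolase C, had 19.7 and 81.1 against 1.37 and 1.39 CPM (log2 change 5.18 ± 0.84, adjusted p = 0.00817). Cellobiose dehydrogenase oxidises cellobiose and can pass electrons to polysaccharide monooxygenases. Its gene PCON_04062 had 76.5 and 157 against 2.66 and 3.59 CPM (log2 change 5.23 ± 0.63, adjusted p = 0.00239). In all 3 genes dark surface library 2 held the highest level, and both dark surface libraries were above both pool libraries. The xylanase gene PCON_13449 had 22.7 and 67.4 against 1.83 and 2.14 CPM (log2 change 4.50 ± 0.74, adjusted p = 0.00908), and the acetylxylan esterase gene PCON_13921, whose product removes acetyl groups from xylan, had 34.4 and 76.1 against 2.66 and 4.85 CPM (log2 change 3.89 ± 0.81, adjusted p = 0.0214). The calls of PCON_01661 and PCON_04062 held whichever library was left out. Those of PCON_12040 (adjusted p = 0.0738 without pool library 1), PCON_13449 (0.0585 to 0.0806 without dark surface library 2 or pool library 1) and PCON_13921 (0.0594 to 0.169 without any 1 of the 4) did not. The list's count of 11 higher genes was 6 and 3 without dark surface library 1 or 2, and 2 and 5 without pool library 1 or 2.

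Not every gene of this kind followed that direction. The Pfam family Glyco_hydro_61, copper-dependent monooxygenases that break crystalline cellulose, had 10 tested genes, of which 6 were higher and 2 lower (median log2 change 2.17). Over all genes tested 2.87% were higher and 4.79% lower. The family had the largest share called of all Pfam domains counted, so it stands here as the top of a ranking. PCON_08409 had 6.0 and 23.6 CPM in the dark surface libraries and no count in either pool library, at least 188-fold higher when a floor of 3 counts is set for the pool (adjusted p = 0.0211). PCON_05386 had 43.7 and 118 against 6.87 and 3.40 CPM (log2 change 3.97 ± 0.77, adjusted p = 0.0171), and PCON_11790 had 2.61 and 11.5 against 0.0458 and 0 CPM (adjusted p = 0.0170). Both dark surface libraries were above both pool libraries in these 3 genes. In contrast, PCON_01241 had 74.2 and 89.8 against 838 and 1024 CPM (log2 change -3.50 ± 0.46, adjusted p = 0.00331), and PCON_10139 had 15.1 and 21.8 against 100 and 107 CPM (log2 change -2.49 ± 0.43, adjusted p = 0.0102). Members of this 1 family thus lay on both sides, with no overlap between the groups in any of the 5. Of these 5 calls none held in every omission of 1 library: the adjusted p rose to 0.0545 for PCON_01241 without dark surface library 1, and to between 0.0543 and 0.120 at the omissions that ended the other calls. PCON_08409 also lost its call when the fit used the 4 libraries alone (0.0505) or the 6 mycelium libraries (0.0578). Several Glyco_hydro_61 genes, exoglucanase 1, xyloglucanase and the beta-glucosidases carry descriptions that the plant cell wall list did not catch, so they are not in its counts.

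Some further genes for the use of plant polymers and sugars were also higher, among them 2 of 8 tested genes with the Pfam domain Glyco_hydro_3. The genes of that domain formed no list, and 2.87% of all genes tested were higher. Beta-glucosidases split cellobiose to glucose, and PCON_11263, beta-glucosidase F, had 352 and 267 CPM in the dark surface libraries against 53.9 and 61.2 CPM in the pool (log2 change 2.43 ± 0.27, adjusted p = 0.00159). PCON_09067, beta-glucosidase E, had 138 and 161 against 24.5 and 37.8 CPM (log2 change 2.27 ± 0.39, adjusted p = 0.0105). PCON_05371, exoglucanase 1, had 22.9 and 46.2 against 4.08 and 5.61 CPM (log2 change 2.84 ± 0.49, adjusted p = 0.0110). The groups did not overlap in any of the 3, and the call of PCON_11263 held at every omission. A pair of genes described as bifunctional xylanase/deacetylase moved apart: PCON_05867 had 5.34 and 10.4 against 0.0458 and 0.567 CPM and was higher (adjusted p = 0.0107), and PCON_05963 had 57.1 and 65.4 against 242 and 257 CPM and was lower (log2 change -2.03 ± 0.34, adjusted p = 0.00978). Among 29 sugar transporters, 4 were higher and 1 was lower (median 0.16), against 2.87% and 4.79% of all genes tested. PCON_02393, a high-affinity glucose transporter, had 1993 and 2017 against 657 and 768 CPM (log2 change 1.49 ± 0.32, adjusted p = 0.0242), and PCON_07487, a lactose permease, had 493 and 422 against 78.5 and 153 CPM (log2 change 1.99 ± 0.36, adjusted p = 0.0131). The lower one was PCON_08529, a high-affinity glucose transporter of the HXT2 type, with 1.43 and 2.75 against 25.0 and 28.5 CPM (log2 change -3.67 ± 0.47, adjusted p = 0.00308), and its call held at every omission. The calls of PCON_09067 (0.0662 to 0.0942), PCON_05371 (0.0877 to 0.0981), PCON_05867 (0.0637 to 0.0641), PCON_05963 (0.0785 to 0.106), PCON_02393 (0.0892 to 0.186) and PCON_07487 (0.0592 to 0.0897) were lost at 2 to 4 of the 4 omissions, with the adjusted p in brackets.

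**Figure D3:**
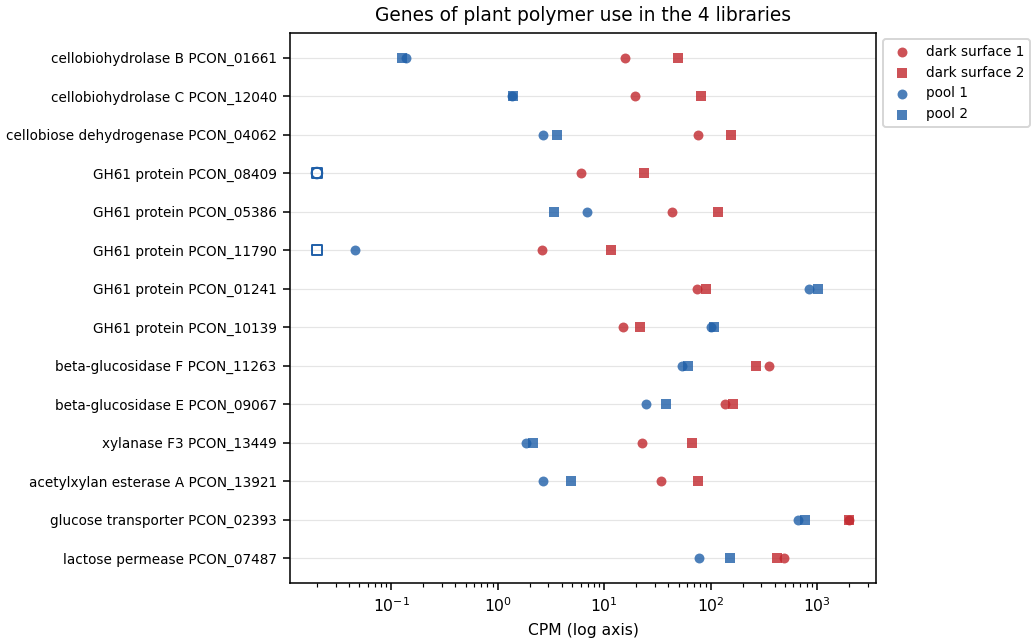
Points give the CPM (log axis) of named genes for cellulose, xylan and sugar uptake in each of the 4 libraries, with circles for library 1 and squares for library 2, red for dark surface mycelium and blue for the pool, and open symbols at the left edge for libraries with no count. Both red symbols lie right of both blue ones in the higher genes and left of them in the lower ones, such as PCON_01241.

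Several other genes were far higher in the dark surface mycelium. PCON_09664, described as a heat-stable 19 kDa antigen with a predicted extracellular location, had 200 and 685 CPM in dark surface libraries 1 and 2 and 0.275 and 0.189 CPM in the pool libraries, a log2 change of 10.82 ± 0.81 (adjusted p = 0.000363). PCON_10300, described as bilirubin oxidase, a multicopper oxidase, had 16.4 and 38.7 against 0 and 0.063 CPM (adjusted p = 0.00548). PCON_06122, an alcohol oxidase, an enzyme that makes peroxide from short alcohols, had 7757 and 6015 against 1038 and 1789 CPM (log2 change 2.29 ± 0.46, adjusted p = 0.0188). It was among the 5 described genes of highest mean CPM in the dark surface mycelium, at 3241 CPM per kb there and 665 CPM per kb in the pool. PCON_09009, described as a methylcobalamin:homocysteine methyltransferase, had 365 and 113 against 6.91 and 23.7 CPM (log2 change 3.97 ± 0.78, adjusted p = 0.0181), the first dark surface library being the higher one here. The calls of PCON_10300 (0.0519 without pool library 1), PCON_06122 (0.0717 to 0.151 without dark surface library 1 or 2 or pool library 1) and PCON_09009 (0.110 to 0.112 without dark surface library 1 or pool library 1, and 0.102 in the fit of the 4 libraries alone) did not hold, and that of PCON_09664 did.

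Genes with no described product were among the most changed. PCON_12798 had 56.6 and 216 against 0.412 and 0.441 CPM (log2 change 8.30 ± 0.83, adjusted p = 0.00266), and PCON_13430 had 7.30 and 15 CPM with no count in the pool, at least 141-fold higher (adjusted p = 0.00314). The calls of both held at every omission. PCON_10815, predicted to be extracellular, had 611 and 1460 against 6.18 and 8.25 CPM (log2 change 7.17 ± 1.08, adjusted p = 0.00645, and 0.0777 without pool library 1). PCON_09497 had 192 and 180 against 1.83 and 3.97 CPM (log2 change 6.02 ± 0.62, adjusted p = 0.00119), with 0.441 and 1.27 CPM in the sexual mycelium. It stood high in both dark surface libraries and low in the other mycelium libraries, and its call held at every omission. On the other side, PCON_01368 had no count in the dark surface libraries against 13.1 and 15.5 CPM in the pool, at least 148-fold lower (adjusted p = 0.00174). PCON_04135, described by its likeness to an uncharacterized yeast protein, had no count there against 17.7 and 9.45 CPM, at least 149-fold lower (adjusted p = 0.000617). Both calls held at every omission. In all, 5 higher genes had no count in the pool and 13 lower genes had none in the dark surface mycelium. A gene with no count in 1 group was tested only because both libraries of the other group held at least 10 counts. Its lack of overlap, here and elsewhere in the text, was thus fixed before the test. PCON_04257, with no count in the dark surface libraries and 23 in the pool, was not called.

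A group of neighbours on scaffold 653 was higher, although not as an unbroken run. PCON_11932, described as psi-producing oxygenase A, had 2515 and 1633 against 292 and 317 CPM (log2 change 2.77 ± 0.43, adjusted p = 0.00695). In Aspergillus these oxygenases make oxylipins that act on the balance of sexual and asexual spores. PCON_11929, described as the ubiquitin ligase RNF216, had 401 and 209 against 21.6 and 34.2 CPM (log2 change 3.45 ± 0.61, adjusted p = 0.0120), and PCON_11930, an ankyrin repeat protein, had 531 and 289 against 31.9 and 51.1 CPM (log2 change 3.30 ± 0.42, adjusted p = 0.00301). Dark surface library 1 was the higher of its pair in all 3. PCON_11930 kept its call at every omission, and the other calls ended without dark surface library 1 or pool library 1 (0.0548 to 0.0628 for PCON_11932 and 0.0816 to 0.102 for PCON_11929). Of 147 tested genes with the Pfam domain Ank, 8 were higher and 3 lower, against 2.87% and 4.79% of all genes tested. One of the higher ones, elsewhere in the genome, was PCON_06925 with 2055 and 2316 against 696 and 894 CPM (log2 change 1.46 ± 0.26, adjusted p = 0.0119, and 0.0684 to 0.111 at the 3 omissions that ended its call).

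The ammonium transporter gene PCON_08415 was the nitrogen gene with the strongest drop. It had 7.17 and 2.31 CPM in dark surface libraries 1 and 2 and 1043 and 887 CPM in pool libraries 1 and 2, a log2 change of -7.67 ± 0.70 (adjusted p = 0.000617). PCON_09531, described as a urea active transporter, had 3.78 and 2.25 against 463 and 306 CPM (log2 change -7.0 ± 1.12, adjusted p = 0.00808). PCON_08423, a purine permease, had 3.72 and 3.99 against 144 and 80.9 CPM (log2 change -4.87 ± 0.43, adjusted p = 0.000598). All 3 stand for uptake, and in each the dark surface levels were far below both pool libraries. The sexual mycelium had 42.3 and 19.4 CPM of PCON_08415, 11.2 and 16.0 CPM of PCON_09531 and 10.1 and 5.63 CPM of PCON_08423. Other ammonium transporters were lower by less: PCON_08711, of the MEP3 type, had 475 and 381 against 1747 and 1571 CPM (log2 change -1.95, adjusted p = 0.0314), and PCON_12699 had 60.4 and 49.2 against 139 and 125 CPM (log2 change -1.27, adjusted p = 0.0421). A purine permease gene of the same description, PCON_09605, was higher, with 620 and 665 against 236 and 278 CPM (log2 change 1.32, adjusted p = 0.0358).

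Enzymes that turn purines into ammonium were lower at several steps. Uricase oxidises uric acid, and its gene PCON_09106 had 38.3 and 37.5 CPM in the dark surface libraries against 275 and 449 CPM in the pool (log2 change -3.26 ± 0.33, adjusted p = 0.00119). Allantoinase opens the allantoin ring, and PCON_06226 had 23.5 and 28.9 against 1022 and 741 CPM (log2 change -5.07 ± 0.36, adjusted p = 0.000357). Its neighbour PCON_06225, also described as allantoinase, had 3.98 and 8.67 against 42.4 and 31.2 CPM (log2 change -2.54, adjusted p = 0.0244). Urease splits urea, and PCON_05563 had 70.5 and 53.5 against 454 and 319 CPM (log2 change -2.64 ± 0.37, adjusted p = 0.00495). The groups did not overlap in any of these genes. The xanthine dehydrogenase gene PCON_12424 (log2 change -0.84) and the allantoicase gene PCON_13198 (log2 change -2.18, adjusted p = 0.0744), which act before uricase and after allantoinase, were not called. For PCON_06226 the sexual mycelium had 171 and 143 CPM, between the levels of the other groups.

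Nitrate and ammonium assimilation were less altered. The nitrate transporter PCON_11812 had 25.8 and 18.5 against 58.2 and 59.5 CPM (log2 change -1.41 ± 0.29, adjusted p = 0.0200). The neighbouring nitrate reductase PCON_11813 (log2 change -1.28, adjusted p = 0.0565) and nitrite reductase PCON_11814 (log2 change -1.60, adjusted p = 0.161) were not called. Glutamate synthase, which with glutamine synthetase fixes ammonium into glutamate, was lower: PCON_13408 had 203 and 165 against 787 and 600 CPM (log2 change -1.91 ± 0.31, adjusted p = 0.00816). Glutamine synthetase PCON_06630 (log2 change -0.83, adjusted p = 0.128) and the NADP-specific glutamate dehydrogenase PCON_03821 were not called, the latter with 4397 and 3298 against 3166 and 4536 CPM, so that the groups overlapped. Regulators behaved variously. PCON_01081, nit-4, the nitrate activator of Neurospora, had 130 and 147 against 65.6 and 79.1 CPM and was higher (log2 change 0.94, adjusted p = 0.0327, and 0.0894 to 0.268 when any 1 library was left out). The areA gene PCON_01759, named for the general nitrogen activator of Aspergillus, had 373 and 362 against 492 and 396 CPM and was not called (adjusted p = 0.600). PCON_08568, described as DAL81, a coactivator of nitrogen catabolic genes in baker's yeast, had 214 and 177 against 1196 and 745 CPM (log2 change -2.31 ± 0.29, adjusted p = 0.00266). PCON_07629, described as the acetamidase regulator of Aspergillus, had 28.5 and 17.7 against 209 and 184 CPM (log2 change -3.09, adjusted p = 0.0170).

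Of the nitrogen genes given above, PCON_08415, PCON_08423, PCON_06226, PCON_09106 and PCON_08568 kept their calls at every omission. PCON_09531 lost its call without dark surface library 1 or 2 (0.0826 to 0.0890), PCON_05563 without dark surface library 2 (0.0592), PCON_13408 at 3 omissions (0.0541 to 0.0883) and PCON_07629 at 3 (0.0711 to 0.134). PCON_08711, PCON_12699, PCON_09605, PCON_06225 and PCON_11812 lost theirs at all 4, with adjusted p from 0.0505 to 0.272. The list's count of 13 lower genes was 5 without either dark surface library, 7 without pool library 1 and 8 without pool library 2. Its count of 2 higher genes was 0 at every omission. Under RLE scaling PCON_08711 (0.0528) and PCON_12699 (0.0659) were not called.

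**Figure D4:**
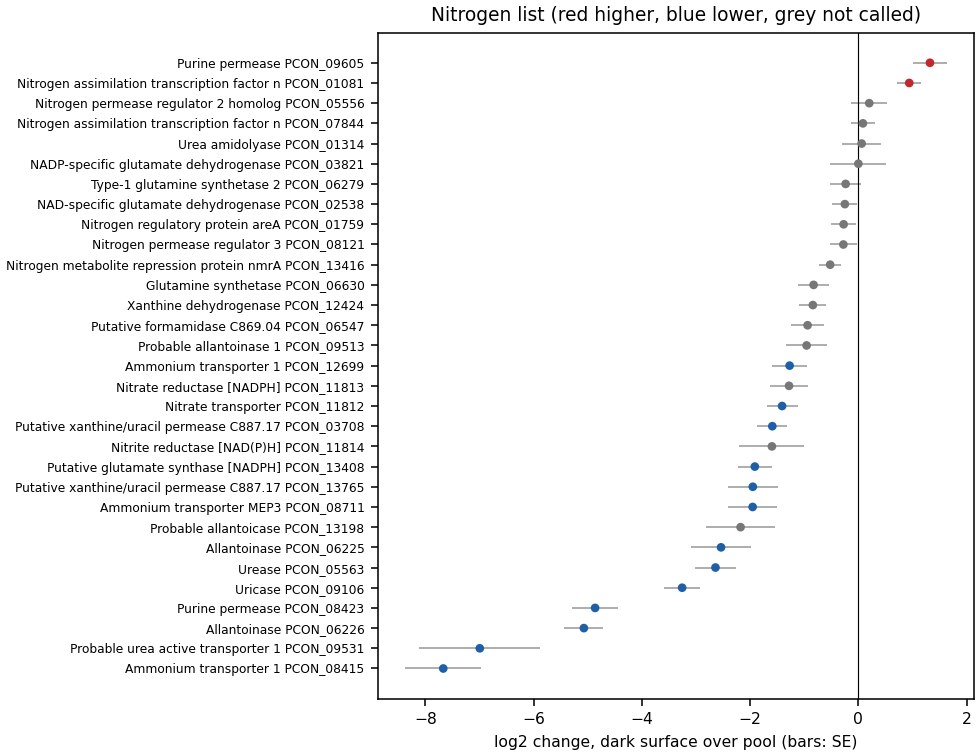
Each row is 1 of the 31 tested genes of the nitrogen list, ordered by the log2 change of dark surface mycelium over the pool (x axis), with bars for 1 SE. Blue points are the 13 genes called lower, red points the 2 called higher and grey points those not called, and the ammonium transporter PCON_08415 lies lowest and the purine permease PCON_09605 highest.

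Several genes described as enzymes of amino acid breakdown, for which no list was drawn up, were lower. PCON_05797, an L-amino-acid oxidase, which releases ammonium from amino acids outside or inside the cell, had 11 and 19.5 CPM in the dark surface libraries against 503 and 669 CPM in the pool (log2 change -5.26 ± 0.45, adjusted p = 0.000519). PCON_06618, an L-asparaginase, had 0.717 and 0.936 against 166 and 124 CPM (log2 change -7.44 ± 1.04, adjusted p = 0.00478). PCON_09910, proline dehydrogenase, the first step of proline use, had 18.1 and 20.3 against 158 and 143 CPM (log2 change -2.97 ± 0.44, adjusted p = 0.00626). PCON_07890, glycine dehydrogenase, had 23.1 and 34.1 against 187 and 127 CPM (log2 change -2.46 ± 0.30, adjusted p = 0.00266). In all 4 genes both dark surface libraries lay under both pool libraries. Decarboxylases of the tyrosine type formed a cluster on scaffold 678: PCON_12391 had 20.1 and 19.8 against 307 and 445 CPM (log2 change -4.24 ± 0.35, adjusted p = 0.000469), and PCON_12389 (log2 change -3.56, adjusted p = 0.00645) and PCON_12394 (log2 change -2.38, adjusted p = 0.0103) were lower with it. The related gene PCON_12393 between them had 22.9 and 22.1 against 11.1 and 13.6 CPM and was not called. Calls held at every omission for PCON_05797, PCON_07890 and PCON_12391. They did not for PCON_06618 (0.0579 to 0.0662) and PCON_09910 (0.0589 to 0.0740), each lost without either dark surface library, or for PCON_12389 (0.0670 to 0.0803) and PCON_12394 (0.0917).

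Amino acid and peptide uptake was split. General amino acid permeases were lower: PCON_07075, of the AGP3 type, had 31.8 and 27.8 against 368 and 229 CPM (log2 change -3.33 ± 0.30, adjusted p = 0.000617), and PCON_02250, of the AGP2 type, had 5.54 and 9.17 against 35.8 and 37.7 CPM (log2 change -2.32, adjusted p = 0.00308). The peptide transporter PCON_12518 was lower, with 2.09 and 2.68 against 31.2 and 45.5 CPM (log2 change -4.0, adjusted p = 0.00266). A further peptide transporter, PCON_11546, was among the 5 described genes of highest mean CPM in the pool. It had 1784 and 1539 against 6186 and 4019 CPM (log2 change -1.62 ± 0.33, adjusted p = 0.0210, and 0.129 to 0.161 at the 3 omissions that ended its call). It overlaps another gene, and its counts are uncertain because the use of strand in counting is not given in the sources used here. Proline permeases went the other way: PCON_08572 had 377 and 283 against 43.2 and 57.0 CPM (log2 change 2.72 ± 0.40, adjusted p = 0.00619, and 0.0602 without pool library 1). PCON_02954 had 37.3 and 37.9 against 9.80 and 9.01 CPM (log2 change 2.0, adjusted p = 0.0248, and 0.118 to 0.149 when any 1 library was left out). Methionine permeases lay on both sides, PCON_03846 and PCON_13164 being higher (log2 changes 3.29 and 2.34) and PCON_08427 lower (log2 change -1.19, adjusted p = 0.0462, and among other settings 0.0564 under RLE scaling, 0.0730 without the filter on low counts and 0.0670 with filterByExpr). PCON_07075, PCON_02250 and PCON_12518 kept their calls at every omission, and PCON_03846, PCON_13164 and PCON_08427 did not (0.0604 to 0.374).

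Of 69 proteases, 11 were lower in the dark surface mycelium and 2 higher. PCON_11462, a neutral protease 2 homologue and thus a secreted metalloprotease, had 0.130 and 0.0624 CPM in the dark surface libraries, 3 counts in all, against 111 and 80.6 CPM in the pool. Its adjusted p of 4.75e-05 was the smallest of all 9801 genes. PCON_13491, a metallocarboxypeptidase, had 31.6 and 31.4 against 276 and 244 CPM (log2 change -3.05 ± 0.26, adjusted p = 0.000543), and PCON_13505, an extracellular metalloprotease, had 34.7 and 35.4 against 269 and 302 CPM (log2 change -3.02 ± 0.34, adjusted p = 0.00166). PCON_09037, dipeptidyl-peptidase 5, had 52.3 and 48.8 against 368 and 253 CPM (log2 change -2.62 ± 0.32, adjusted p = 0.00266). In these genes both pool libraries were high, and all 4 calls held at every omission. Bleomycin hydrolase, a cysteine protease known from inside cells, was uneven: PCON_07046 had 0.391 and 0.125 against 407 and 34.4 CPM (log2 change -9.71 ± 1.31, adjusted p = 0.00387). Its call ended without dark surface library 2 (0.0514) and in the fit of the 4 libraries alone (0.0794). Without a library the list's count of 11 lower proteases was 4 to 10, lowest without dark surface library 1. The 2 higher ones, PCON_04304 of the Lon type and PCON_06807, an aminopeptidase, lost their calls at every omission (0.0684 to 0.291).

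Of 20 genes for metal and siderophore uptake 4 were lower, and of 20 for phosphate and sulfur 3 were lower, with 0 higher in either list. PCON_08014, named for the zinc transporter ZRT1 of yeast, had 26.7 and 24.7 CPM in the dark surface libraries against 688 and 127 CPM in pool libraries 1 and 2 (log2 change -3.99 ± 0.69, adjusted p = 0.0103). PCON_09704, of the ZRT2 type, had 0.130 and 0.0624 against 75.1 and 7.43 CPM (adjusted p = 0.00555). PCON_01240, described as the siderophore transporter mirC of Aspergillus, had 5.67 and 8.30 against 202 and 23.1 CPM (log2 change -4.01 ± 0.85, adjusted p = 0.0235). In all 3, pool library 1 was the higher of the pool pair and both pool libraries were above the dark surface ones. The phosphate transporter gene PCON_05628, of the PHO84 type, had the same shape, with 4.50 and 8.49 against 305 and 58.5 CPM (log2 change -4.81 ± 0.72, adjusted p = 0.00634). PCON_13624, of the same description, was even, with 93.4 and 121 against 429 and 382 CPM (log2 change -1.92 ± 0.29, adjusted p = 0.00645). In the sexual mycelium PCON_09704 had 96.5 and 143 CPM and PCON_05628 had 233 and 232 CPM. There PCON_08014 had 42.4 and 49.4 CPM, PCON_01240 had 33.7 and 41.4 CPM and PCON_13624 had 51.2 and 46.7 CPM. PCON_10311, described by likeness to a plant metal-nicotianamine transporter, had 825 and 768 against 6937 and 5297 CPM (log2 change -2.94 ± 0.27, adjusted p = 0.000617), and kept its call at every omission. It was among the 5 described genes of highest mean CPM in the pool, at 2628 CPM per kb there and 342 CPM per kb in the dark surface mycelium. The fit of the 4 libraries alone, which takes its spread from these pairs only, did not call PCON_08014 (0.101), PCON_09704 (0.0898), PCON_01240 (0.151) or PCON_05628 (0.0863). PCON_08014 (0.0952 to 0.0966), PCON_09704 (0.0636 to 0.0648), PCON_01240 (0.0960 to 0.183), PCON_05628 (0.0740) and PCON_13624 (0.0832) also lost their calls at 1 to 3 omissions. Metal and siderophore uptake had 0 lower genes without either dark surface library. Its 4 lower genes include the repressor SREP, PCON_07097, which in Penicillium turns siderophore synthesis off, with 59.1 and 67.9 against 144 and 131 CPM (log2 change -1.11, adjusted p = 0.0195, and 0.0598 to 0.185 at the omissions).

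The 11 called genes of sterol and lipid synthesis were all lower in the dark surface mycelium. PCON_03325, squalene monooxygenase, an early enzyme of ergosterol synthesis, had 28.6 and 32.3 CPM in the dark surface libraries against 123 and 164 CPM in the pool (log2 change -2.23 ± 0.31, adjusted p = 0.00419). PCON_01687, C-5 sterol desaturase, a late one, had 32.7 and 38.4 against 126 and 174 CPM (log2 change -2.08 ± 0.25, adjusted p = 0.00238). PCON_03679, an acyl-CoA desaturase, which puts the first double bond into fatty acids, had 424 and 401 against 1431 and 1535 CPM (log2 change -1.85 ± 0.28, adjusted p = 0.00679). The enzymes between them, PCON_04971 (lanosterol demethylase, log2 change -1.28), PCON_03034 (sterol C-14 reductase, -1.25) and PCON_13141 (methylsterol monooxygenase, -1.16), were lower with adjusted p from 0.0211 to 0.0385. PCON_10632, described as a sterol regulatory element-binding protein, an activator of this pathway in animals, had 325 and 449 against 863 and 886 CPM (log2 change -1.18, adjusted p = 0.0289). PCON_01287, described as insulin-induced gene 1, which holds that activator back in animals, was higher, with 261 and 332 against 101 and 118 CPM (log2 change 1.44, adjusted p = 0.00771). Of these calls that of PCON_01687 held at every omission. PCON_03325 (0.0662 without dark surface library 1), PCON_03679 (0.0740 to 0.0762) and PCON_01287 (0.0785 to 0.0792) lost theirs at 1 or 2, and PCON_04971, PCON_03034, PCON_13141 and PCON_10632 at all 4 (0.0788 to 0.264). The count of 11 lower genes was 1 and 2 without dark surface library 1 or 2, and 4 and 6 without pool library 1 or 2. PCON_04971 (0.0620) and PCON_13141 (0.0566) were also not called under RLE scaling.

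Both genes described as alternative oxidase were lower. Alternative oxidase passes electrons straight to oxygen and so bypasses part of the respiratory chain. PCON_11655, described as alternative oxidase, had 2.09 and 2.81 CPM in the dark surface libraries against 69.4 and 40.7 CPM in the pool (log2 change -4.49 ± 0.70, adjusted p = 0.00706), and PCON_03749, of the same description, had 18.7 and 16.0 against 145 and 470 CPM (log2 change -4.15 ± 0.85, adjusted p = 0.0201). Each was high in both pool libraries, the first more in library 1 and the second more in library 2. Of 53 genes of the respiratory chain and ATP synthase, 2 were lower and 0 higher (median log2 change -0.38). Over all genes tested 2.87% were higher and 4.79% lower. Fitted on the 4 libraries alone, 19 of the 53 were called lower, but that fit called more genes throughout, with 813 of all 9801 lower. Glycolysis had 1 lower gene of 18, the enolase PCON_11324 with 1103 and 1074 against 2822 and 2452 CPM (log2 change -1.28, adjusted p = 0.0215), and the list median was -0.50. Fermentation and low oxygen, which holds the alternative oxidases, had 4 lower and 2 higher genes of 32 (median -0.47). Calls of PCON_11655 (0.0652 to 0.0849) and PCON_03749 (0.0745 to 0.153) ended without either dark surface library, that of PCON_03749 also without pool library 2 and in the fit of the 4 libraries alone (0.0524), and that of PCON_11324 at every omission (0.0559 to 0.162).

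Stress-related genes changed one by one. Small heat shock proteins keep damaged proteins soluble, and 3 genes described as the 30 kDa heat shock protein were lower. PCON_10958 had 7.43 and 8.92 against 67.5 and 162 CPM (log2 change -3.81 ± 0.57, adjusted p = 0.00633), PCON_02801 had 7.56 and 8.49 against 36.1 and 88.3 CPM (adjusted p = 0.0286), and PCON_10956 had 67.8 and 87.8 against 291 and 739 CPM (adjusted p = 0.0439). Pool library 2 was the higher of its pair in each. Among 57 chaperones these 3 and a DnaJ homologue, PCON_02410, were lower and 1 was higher (median -0.30). Oxidative stress had 3 lower and 1 higher gene of 48 (median -0.40). The shares called in these lists were 8.77% and 8.33%, near the 7.65% over all genes tested. A superoxide dismutase gene of the SOD5 type, PCON_08184, had 549 and 608 against 1537 and 1631 CPM (log2 change -1.45, adjusted p = 0.0125), whereas a catalase gene, PCON_07431, had 1522 and 1326 against 438 and 700 CPM and was higher (log2 change 1.32, adjusted p = 0.0342). Each of these calls was lost at 2 or more omissions, with adjusted p from 0.0542 to 0.279 where lost, and the 3 heat shock calls ended without either dark surface library. In the fit of the 4 libraries alone PCON_10956 was not called (0.0569).

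Carotenoid synthesis was lower at each of its 3 measured steps. Geranylgeranyl pyrophosphate is joined to phytoene, which is then desaturated and cyclised to the coloured carotenoids. PCON_05718, geranylgeranyl pyrophosphate synthase, had 30 and 37.9 CPM in the dark surface libraries against 93.2 and 95.2 CPM in the pool (log2 change -1.47 ± 0.29, adjusted p = 0.0187). PCON_03423, the bifunctional lycopene cyclase/phytoene synthase, had 1.17 and 3.68 against 41.0 and 86.7 CPM (log2 change -4.71 ± 0.71, adjusted p = 0.00633), and PCON_03421, phytoene dehydrogenase, had 10.3 and 22.6 against 190 and 360 CPM (log2 change -4.06 ± 0.50, adjusted p = 0.00266). Pool library 2 was the higher of its pair, and the groups did not overlap. PCON_03421 and PCON_03423 lie near each other on scaffold 1455 (76133 to 78217 and 79182 to 81301 in the coordinates of the deposited table), with the undescribed PCON_03422, not called, between them. The sexual mycelium had 375 and 273 CPM of PCON_03421 and 67.7 and 59.7 CPM of PCON_03423, levels within or near the range of the pool. For PCON_05718 it had 63.0 and 68.5 CPM, below both pool libraries and above both dark surface ones. Whether light played a part was not tested. PCON_03421 kept its call at every omission, PCON_03423 lost it without dark surface library 1 (0.0636) and PCON_05718 at every omission (0.0692 to 0.173).

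Light sensing genes were not called. White collar 1, PCON_03119, had 22.4 and 24.0 CPM in the dark surface libraries against 25.6 and 19.3 CPM in the pool, and its partner white collar 2, PCON_05086, had 112 and 118 against 134 and 133 CPM. In Neurospora this pair forms the blue light receptor complex. The clock gene frequency, PCON_09365, had 202 and 163 against 175 and 159 CPM, the phytochrome PCON_06747 205 and 170 against 157 and 126 CPM, and the DASH-type cryptochrome PCON_04123 3.85 and 7.55 against 3.16 and 5.10 CPM. None of the 5 was called, with log2 changes from -0.22 to 0.47 and adjusted p from 0.530 to 0.965. A missed threshold with 2 libraries a group does not show that their levels were equal.

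Genes named for sporulation and fruiting moved in opposite directions. PCON_11571, conidiation-specific protein 6 of Neurospora, had 534 and 727 CPM in the dark surface libraries against 80.4 and 74.6 CPM in the pool (log2 change 3.02 ± 0.39, adjusted p = 0.00311). PCON_02676, wetA, which in Aspergillus acts late in spore maturation, had 457 and 509 against 78.7 and 117 CPM (log2 change 2.31 ± 0.26, adjusted p = 0.00166). The sexual mycelium had 12.6 and 18.7 CPM of the first and 63.1 and 68.5 CPM of the second, below the dark surface mycelium in both. PCON_12773, abaA, an earlier sporulation regulator in Aspergillus, had 42.7 and 40.4 against 39.3 and 39.0 CPM and was not called (adjusted p = 0.959). PCON_04524, described as fruiting body protein SC7 of Schizophyllum, had 0.261 and 0.998 against 24.3 and 99.3 CPM (log2 change -6.59 ± 0.95, adjusted p = 0.00537), with 181 and 66.2 CPM in the sexual mycelium. PCON_09765, fluG, which in Aspergillus starts asexual development, had 4.43 and 6.43 against 20.3 and 28.0 CPM (log2 change -2.15, adjusted p = 0.0237). Thus 2 of 11 developmental genes were higher and 2 lower (median 0.40), against 2.87% and 4.79% of all genes tested. The calls of PCON_11571 and PCON_02676 held at every omission. That of PCON_04524 ended without dark surface library 1 (0.0636) and in the fit of the 4 libraries alone (0.0555), and that of PCON_09765 at every omission (0.0682 to 0.202).

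Lectins, proteins that bind sugars, included neighbours that differed in direction. PCON_04233, a fucose-specific lectin, had 7.24 and 11.2 against 209 and 251 CPM (log2 change -4.64 ± 0.41, adjusted p = 0.000598). The adjacent PCON_04232, of the same description and on the other strand, had 1345 and 1298 against 210 and 295 CPM (log2 change 2.39 ± 0.36, adjusted p = 0.00633, and 0.0605 without pool library 1). In each gene the libraries within a group differed less than the groups did. PCON_12683, described as a partial lectin, had 1.11 and 1.75 against 14.3 and 24.2 CPM (log2 change -3.74 ± 0.54, adjusted p = 0.00537, and 0.0679 without dark surface library 1). PCON_06081, galectin-3, had 6.13 and 12.9 against 301 and 39.4 CPM (adjusted p = 0.0328), and its call ended, among other settings, at 3 omissions (0.147 to 0.312), in the fits of the 4 libraries alone (0.139) and of the 6 mycelium libraries (0.0656), and without the filter on low counts (0.0528). The lectin list had 1 higher and 3 lower genes of 8 (median -0.40), against 2.87% and 4.79% of all genes tested.

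**Figure D5:**
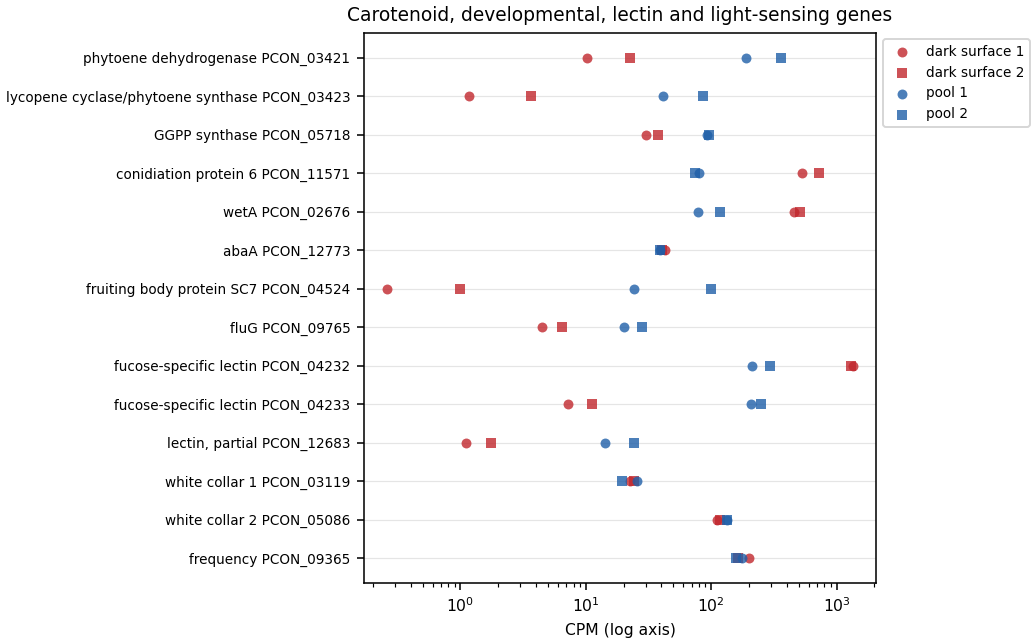
Points give the CPM (log axis) of carotenoid, developmental, lectin and light sensing genes in each library, with circles for library 1 and squares for library 2, red for dark surface mycelium and blue for the pool. The carotenoid genes and SC7 lie left in red, conidiation protein 6 and wetA right, and the light sensing genes overlap or nearly touch.

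A few genes for the fungus's own wall and its surface were called. Endochitinase, which cuts chitin, was lower: PCON_11068 had 9.19 and 11.2 CPM in the dark surface libraries against 162 and 227 CPM in the pool (log2 change -4.26 ± 0.35, adjusted p = 0.000469). Glucan 1,3-beta-glucosidases were higher, PCON_05690 with 577 and 763 against 194 and 231 CPM (log2 change 1.66, adjusted p = 0.0235) and PCON_06803 with 349 and 248 against 107 and 110 CPM (log2 change 1.46, adjusted p = 0.0290). PCON_06465, described as the adhesin Mad1 of Metarhizium, had 308 and 264 against 60.3 and 74.9 CPM (log2 change 2.08 ± 0.31, adjusted p = 0.00625). These genes differed without overlap, and the call of PCON_11068 held at every omission. Among 36 chitin and glucan genes 2 were higher and 1 lower (median 0.17), and among 5 surface protein genes 1 was higher (median 0.01). The share called among the chitin and glucan genes was 8.33%, near the 7.65% over all genes tested. The call of PCON_06465 did not hold without dark surface library 1 or pool library 1 (0.0545 to 0.0600), nor those of the glucosidases at any omission (0.0810 to 0.202).

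Secondary metabolism and RNA silencing gave a few called genes. PCON_10694, described as a sterigmatocystin O-methyltransferase, had 82.5 and 77.8 against 15.7 and 20 CPM (log2 change 2.17 ± 0.27, adjusted p = 0.00286), and its call held at every omission. PCON_12910, a cytochrome P450 named for the same Aspergillus pathway, had 32.7 and 22.3 against 4.26 and 5.04 CPM (log2 change 2.56 ± 0.40, adjusted p = 0.00695, and 0.0657 to 0.0670 without dark surface library 1 or pool library 1). Among 26 polyketide, peptide and pigment genes 3 were higher and 1 was lower (median 0.08), and among 25 cytochrome P450 genes 4 were higher and 3 lower (median 0.21). Over all genes tested 2.87% were higher and 4.79% lower. PCON_08335, argonaute 1, the slicer of RNA silencing, had 385 and 382 against 91.7 and 109 CPM (log2 change 1.94 ± 0.44, adjusted p = 0.0287), and PCON_09614, RNA-dependent RNA polymerase 1, which makes double strands for the same pathway, had 2812 and 3489 against 908 and 1085 CPM (log2 change 1.66 ± 0.41, adjusted p = 0.0390). Both silencing genes were higher in both dark surface libraries, and both lost their calls at every omission (0.108 to 0.256). Among 19 drug and major facilitator transporters 3 were lower and 0 higher (median -0.18), led by PCON_01438 of the CDR2 type with 16.4 and 16.4 against 190 and 129 CPM (log2 change -3.28 ± 0.42, adjusted p = 0.00311), whose call held at every omission.

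The remaining lists held few called genes, where 7.65% of all genes tested were called. Among 69 zinc cluster and other transcription factors 4 were higher and 2 lower (median 0.11), and among 70 cytoskeleton and motor genes 3 were higher and 0 lower (median -0.04), led by the actin patch protein PCON_09493 with 70.3 and 87.7 against 27.5 and 30.9 CPM (log2 change 1.44 ± 0.30, adjusted p = 0.0233, and 0.0951 to 0.181 at the omissions). Glycogen and trehalose had 1 lower gene of 9 (median -0.29). Meiosis and mating had 1 lower gene of 47, PCON_01764, heterokaryon incompatibility 1 higher of 19, PCON_04154, and beta-oxidation 1 lower of 51, the carnitine acyltransferase PCON_02608 with 78.1 and 71.3 against 361 and 299 CPM (log2 change -2.14, adjusted p = 0.00325). The call of PCON_02608 held at every omission, and those of PCON_01764 (0.143 to 0.298) and PCON_04154 (0.140 to 0.248) did not. Amino acid synthesis had 3 lower genes of 60 (median -0.02). They included the carbamoyl-phosphate synthase gene PCON_11555, with 1.24 and 3.12 against 97.2 and 13.0 CPM (adjusted p = 0.0182, 0.127 in the fit of the 4 libraries alone, and 0.0877 to 0.148 at the 3 omissions that ended its call), so that pool library 1 was again the higher.

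Called genes also lay side by side. A stretch of 4 consecutive higher genes on scaffold 456 (71859 to 83634 in the coordinates of the deposited table) held the 19 kDa antigen gene PCON_09664 and 3 genes with no described product. PCON_09665 had 1.56 and 2.75 CPM, and PCON_09666 had 1.63 and 6.80 CPM, both with no count in the pool, at least 27.2-fold and 53.7-fold higher. PCON_09667 had 3.26 and 8.67 against 0 and 0.0630 CPM (adjusted p = 0.00633). No count of PCON_09665 or PCON_09666 was found in the sexual mycelium either. The calls of these 2 genes (adjusted p = 0.0211 and 0.0327) ended at every omission (0.0511 to 0.138), and DESeq2 did not call them (0.360 and 0.270). On the other side, 4 consecutive lower genes on scaffold 294 (261041 to 269483) held PCON_06951, described as agmatinase, which makes putrescine from agmatine, with 0.782 and 0.811 against 34.1 and 29.9 CPM (log2 change -5.32 ± 0.36, adjusted p = 0.000357). Next to it lay a pair of uncharacterized transporters, PCON_06952 with 4.17 and 4.93 against 169 and 149 CPM and PCON_06953 with 4.04 and 4.18 against 320 and 202 CPM, and the undescribed PCON_06954 with 0.391 and 0.0624 against 16.5 and 13.2 CPM. All 4 calls held at every omission. PCON_06953 and PCON_06954 overlap each other, so their counts are uncertain, and both were left out of the fit without overlapping genes. Under the other settings tried the 4 calls held. Shorter runs of higher genes numbered 23 of 2 genes and 6 of 3, and those of lower genes 34 of 2 and 5 of 3. All runs count only called genes with a fitted log2 change past 1 in the same direction. How many runs the shares called would give was not worked out.

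The described genes of highest mean CPM in each group were partly called. Alcohol oxidase was higher, and the peptide transporter and the metal-nicotianamine-type transporter were lower, as given above. The others, PCON_04930, PCON_11298, PCON_12327 and PCON_06550, were not called. Of all genes tested 7.65% were called, and so few abundant genes give no share to set against that. Elongation factor 1-alpha, PCON_04930, had 18345 and 16164 CPM in the dark surface libraries against 15664 and 14173 CPM in the pool (log2 change 0.21, adjusted p = 0.836). It stood at 11168 CPM per kb in the dark surface mycelium and 9656 CPM per kb in the pool, and PCON_11298, of the same description, at 10623 and 8851 CPM per kb. PCON_12327, described as UNC93-like, had 5234 and 5524 against 3393 and 3047 CPM (adjusted p = 0.255). An Hsp70 gene, PCON_06550, had 4014 and 4349 against 5088 and 5606 CPM and was not called (adjusted p = 0.610).

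Both sets of called genes held more predicted secreted proteins than the genes tested. By the first class of the deposited WoLF PSORT predictions, 20.6% of the higher and 22.8% of the lower genes were extracellular, against 8.52% of all genes tested. Plasma membrane proteins made up 16.0% and 17.5% against 10.8%, and nuclear proteins 25.3% and 20.3% against 33.0%. No described product was given for 56.2% of the higher and 56.1% of the lower genes, against 46.9% of all. By Pfam domain, 9 of 121 tested genes with the MFS_1 transporter domain were higher and 20 lower. So were 1 and 6 of 12 with the TRI12 domain, a transporter family that includes the trichothecene efflux pump. Over all genes tested the shares were 2.87% and 4.79%. TRI12 came next after Glyco_hydro_61 in the share called among the Pfam domains counted. PCON_09164 of the TRI12 family had 2.02 and 2.18 against 42 and 42.2 CPM (log2 change -4.32, adjusted p = 0.000357), and PCON_03763 had 0.978 and 0.562 against 24.3 and 38.4 CPM (log2 change -5.34, adjusted p = 0.000617), and both calls held at every omission. None of these shares was tested.

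The authors' deposited table gives its own calls for this comparison, 459 genes higher and 838 lower in the dark surface mycelium. The higher calls shared 239 genes, 52.1% of those in the authors' deposited table and 85.1% of the edgeR calls. The lower calls shared 455 genes, 54.3% of those in the authors' deposited table and 97.0% of the edgeR calls, and 0 genes were called in opposite directions. A stricter set in the authors' deposited table held 201 higher and 507 lower genes.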

How the data were processed

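A single table covering all samples was deposited by the authors. Per the file headers it holds raw read counts per gene model in each library, with no normalization, the authors' consensus calls as a score of -1, 0 or 1 for each comparison, gene lengths, scaffold positions, product descriptions, Pfam domains and location predictions. Per the submitters' processing notes the tools included CASAVA 1.8.2 and DESeq. Aligner, genome build and use of strand in counting: not given in the sources used here, so 355 tested genes that overlap another gene have uncertain counts. There were 0 further columns of per-sample values. Samples were put in groups by their descriptions and columns were matched by name.

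Counts were fitted in R 4.3.3 with edgeR 4.0.16 (limma 3.58.1). Genes with at least 10 counts in at least 2 of the 4 libraries compared were kept, and 3568 were not tested. Libraries were scaled by TMM, whose factors also entered CPM, and all 9 libraries in 4 groups shared 1 fit with 5 residual degrees of freedom. The contrast was tested two-sided with the robust quasi-likelihood test (glmQLFTest), adjusted by Benjamini-Hochberg over 9801 genes at a threshold of 0.05, and a change past 2-fold with glmTreat. SE is the size of the log2 change divided by the square root of F. The procedure was tested on simulated data. A fold against a group with no count is a lower bound at 3 counts over the group, and no fold is printed where the lower group held 1 to 3 counts. These floors cover counting error only. CPM per kb divides by the deposited gene length. Differences within a pair of libraries used a pseudocount of 0.1 CPM.

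The rule for named genes took the 15 largest changes in each direction among described genes that overlapped no other gene. These had at least 10 CPM in the higher group. It also took the 3 smallest p-values in each list, the 5 described genes of highest mean CPM in each group and 2 undescribed genes in each direction. Last came stretches of at least 4 consecutive called genes, all with a fitted log2 change past 1 in the same direction. The rule gave 139 genes, 98 of them called. Those not given one by one are within the counts of their lists. The 36 lists are patterns on the product descriptions, and matches that name another protein were dropped by reading the descriptions. The comparison, the lists and the rule were chosen with earlier results of these data known. Alternatives were DESeq2 1.42.0, RLE scaling, other filters, other sets of libraries, a replicate block and omission of each library.

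The genes named outside the rule, after their values were seen, are PCON_01081, PCON_01241, PCON_01287, PCON_01759, PCON_02954, PCON_03034, PCON_03119, PCON_03422, PCON_03763, PCON_03821, PCON_03846, PCON_04304, PCON_04971, PCON_05371, PCON_05563, PCON_05867, PCON_05963, PCON_06081, PCON_06225, PCON_06630, PCON_06807, PCON_06925, PCON_07097, PCON_07431, PCON_07629, PCON_07890, PCON_08335, PCON_08427, PCON_08572, PCON_08711, PCON_09037, PCON_09067, PCON_09106, PCON_09164, PCON_09365, PCON_09497, PCON_09605, PCON_09614, PCON_09765, PCON_09910, PCON_10139, PCON_10632, PCON_10815, PCON_10956, PCON_11263, PCON_11790, PCON_11812, PCON_11813, PCON_11814, PCON_11932, PCON_12389, PCON_12391, PCON_12393, PCON_12394, PCON_12424, PCON_12699, PCON_12773, PCON_13141, PCON_13164, PCON_13198 and PCON_13408.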

Additional observations from a re-analysis of the deposited data

How the results depend on the processing

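No named gene that was called changed direction under the alternatives tried, but the balance of the counts did: lower genes outnumbered higher ones, and in a fit of the 4 libraries alone the higher ones did by a little. Of the 98 genes that the rule named and edgeR called, 35 kept their calls at every omission of 1 library, 22 lost them at all 4, and 74 kept them under the 8 other alternatives. The count of 281 higher genes was 822 in a fit of the 4 libraries alone, 699 in a fit of the 6 mycelium libraries and 543 with DESeq2, and that of 469 lower genes was 813, 804 and 731. The fit of the 4 libraries kept 265 of the 281 and 367 of the 469, and DESeq2 kept 277 and 465. Past 2-fold, 120 genes were higher in the fit of the 4 libraries and 122 in that of the 6, against 63. Without 1 library, higher genes ranged from 35 to 112, lower genes from 70 to 392, and those past 2-fold from 9 to 29 and from 29 to 226. The split of called genes was 37.5% higher, 50.3% in the fit of the 4 libraries, 41.8% under RLE scaling, 15.1% without pool library 1 and 22.2% without pool library 2. The cause was not tested. The median log2 change over all genes was -0.02 with TMM and 0.04 with RLE or DESeq2. Without the filter on low counts (13310 genes) 208 genes were higher and 408 lower, with filterByExpr (11787 genes) 211 and 402, and without overlapping genes 279 and 459.

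Replicate numbers were not shown to pair the samples. The correlation of deviations from the group means was -0.03 between dark surface mycelium and the pool. With the sexual mycelium it was 0.147 for the dark surface mycelium and -0.182 for the pool. With a replicate block 183 genes were higher and 324 lower, 43 and 117 of them past 2-fold, and PCON_02393 (adjusted p = 0.0504), PCON_08711 (0.0591), PCON_08335 (0.0522) PCON_01240 (0.0644), PCON_06081 (0.0814) and PCON_08427 (0.0871) were among the named genes not called. Depth limits low genes, since 30 lower and 7 higher genes had 1 to 3 counts in the lower group.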

Other observations

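The table held 6 pairs of genes with the same counts in all 9 libraries, 12 genes in all, of which 2 were called, both lower: PCON_04932 and PCON_06218, each described as a FAD-linked sulfhydryl oxidase. Counts of such pairs cannot be assigned to 1 of the copies.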
